A study of Danio rerio with 18 samples.

Results

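Interferon-type genes were followed across irradiated zebrafish embryos that have or lack the transcription factor p53. The set described held 8 of the 32057 genes in the deposited tables. It was made of 3 effector genes (isg15, isg20 and ifit8) and 5 regulator genes (irf1b, irf3, irf7, irf9 and stat2). The effectors were picked because their transcripts were high after irradiation in embryos with p53, and the regulators because they belong to the pathway that normally induces such effectors. The differences between irradiated and untreated embryos are therefore given for these 8 genes as descriptions, with no test. The question was whether effectors were high where the interferon ligands, receptors and regulators were not.

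RNA was measured by poly(A) RNA sequencing in whole embryos irradiated with X-rays at 30 h after fertilization, at 5 Gy per min to a total of 30 Gy. Triple mutants (puma -/- noxa -/- p21 -/-), which lack a pair of cell death genes and a cell cycle inhibitor that act downstream of p53, were sampled untreated and at 1, 2 and 3 h after irradiation. Mutants for p53 (p53 -/-) were sampled untreated and at 1 and 3 h, and wild types (p53 +/+) at 3 h and untreated. Each of the 9 groups held 2 libraries, 18 in all. Separate clutches for the libraries of a group are not stated, so p-values measure the spread between libraries, which may be technical. The untreated embryos had the same stage label, but their hour of collection is not given, so treatment and age at collection cannot be told apart. Because whole embryos were used, more cells of a type and more RNA per cell cannot be told apart either.

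Interferons are secreted proteins that cells release when sensors such as RIG-I or cGAS detect foreign or misplaced nucleic acids. The sensors act through adaptors and kinases on the transcription factors IRF3 and IRF7, which switch on the interferon genes. Secreted interferon binds receptors linked to JAK kinases, which activate STAT proteins, and these join IRF9 to induce interferon-stimulated genes. The transcription factor p53 is activated by DNA damage and induces its own set of genes, among them its inhibitor mdm2.

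Expression is given in TPM, a transcript abundance corrected for gene length and scaled to the same sum in every library, and differences as differences of log2(TPM + 1) with a standard error (SE). The added 1 makes these differences smaller than the fold change for genes near or below 1 TPM. Between 14057 and 17419 genes per library reached 1 TPM. Replicate 1 of the p53 mutant at 1 h, of the untreated p53 mutant and of the untreated wild type held 304 to 631 TPM of 5.8S ribosomal RNA, their replicates 2 held 13.6 to 52.8 TPM, and the other 12 libraries were listed at 0. In these 3 groups the library with more 5.8S RNA was the lower of the pair in all 3 groups for 64.8% of the 18575 genes tested and for 4 of the 7 members tested. These libraries bear on the untreated level of both genotypes, and their part in the results was not tested beyond the values without them given below.

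Of the 8 members, 7 reached the minimum of 1 TPM in 2 libraries that was set for the fit. The gene irf3 did not, and only its levels are given. Both isg15 and ifit8 reached it only through irradiated libraries of embryos with p53, so passing the minimum says nothing about them.

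The 3 effectors stood at their highest levels at 3 h in triple mutants and in wild types, and were near their untreated level in p53 mutants. The gene isg15 (ENSDARG00000086374) encodes a small ubiquitin-like protein that mammalian cells attach to other proteins during an interferon response. In triple mutants it had 0.04 and 0.10 TPM in untreated embryos, 0.77 and 0.71 TPM at 1 h, 0.98 and 1.22 TPM at 2 h, and 7.35 and 9.27 TPM at 3 h. Mutants for p53 had 0.09 and 0.03 TPM in untreated embryos, 0.13 and 0.08 TPM at 1 h, and 0.00 and 0.07 TPM at 3 h. Wild types had 6.66 and 7.60 TPM at 3 h, against 0.04 and 0.13 TPM in untreated embryos. The 3 h libraries of triple mutants and wild types overlapped with each other and stood above every other library. The irradiated p53 mutants stayed at or below 0.13 TPM, as the untreated embryos of every genotype did.

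On the log2(TPM + 1) scale isg15 was higher by 3.11 (SE 0.154) in triple mutants and by 2.90 (SE 0.154) in wild types at 3 h, against a difference of -0.03 (SE 0.154) in p53 mutants. The difference between the triple mutant and p53 mutant responses at 3 h was 3.15 (SE 0.218), and between the wild type and p53 mutant responses 2.94 (SE 0.218). In TPM, the lowest 3 h library stood 73.5 times above the highest untreated one in triple mutants and 51.2 times above it in wild types. These ratios rest on untreated values near 0, where the depth of the libraries is unknown.

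The gene isg20 (ENSDARG00000079783) carries the symbol of a human exonuclease gene whose product degrades single-stranded RNA. The symbol comes from the name table, and whether this gene is the counterpart of human ISG20 or of the related nuclease gene AEN, which p53 induces in human cells, was not checked here. Its values are therefore those of this identifier. Its level was far above that of isg15 in every group. In triple mutants it had 46.6 and 52.8 TPM in untreated embryos, 132 and 120 TPM at 1 h, 137 and 131 TPM at 2 h, and 218 and 226 TPM at 3 h. The p53 mutants had 25.7 and 31.4 TPM in untreated embryos, 22.8 and 39.1 TPM at 1 h, and 44.1 and 39.4 TPM at 3 h. Wild type embryos had 215 and 238 TPM at 3 h, against 21.7 and 39.6 TPM in untreated embryos. All irradiated libraries of triple mutants stood above their untreated ones, as they did for isg15 and ifit8. In all genes tested this held for 20.9% at 1 h, 53.3% at 2 h and 39.3% at 3 h. The effectors were chosen for it at 3 h. The untreated libraries used in that choice enter the comparisons at 1 and 2 h too. The 3 h libraries of triple mutants and wild types overlapped.

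For isg20 the log2 difference at 3 h was 2.14 (SE 0.266) in triple mutants and 2.90 (SE 0.266) in wild types. In p53 mutants it was 0.54 (SE 0.266), where both 3 h libraries stood above both untreated ones by at least 1.26 times. The median difference of all 18575 genes in that comparison was 0.17, and 36.4% of them had both 3 h libraries above both untreated ones. The wild type difference was 2.48 without the 3 libraries of high 5.8S RNA and 3.32 without their 3 partners. The triple mutant response at 3 h differed from the wild type response by -0.77 (SE 0.376), which was -0.35 and -1.19 under the same omissions, and the untreated level was higher in triple mutants than in wild types without overlap. Tables of different genotypes were deposited separately, so genotype and table cannot be told apart in such levels.

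The gene ifit8 (ENSDARG00000057173) belongs to the IFIT family, whose mammalian members bind viral RNA. In triple mutants it had 0.02 and 0.09 TPM in untreated embryos, 0.44 and 0.17 TPM at 1 h, 0.40 and 0.53 TPM at 2 h, and 2.51 and 3.68 TPM at 3 h. In p53 mutants it was listed at 0 in all 6 libraries. In wild types it had 2.61 and 3.58 TPM at 3 h, and both untreated libraries were listed at 0. The pattern of isg15 was seen again at a lower level, with the 3 h libraries of triple mutants and wild types overlapping. The log2 difference at 3 h was 1.94 (SE 0.175) in triple mutants and 2.02 (SE 0.175) in wild types. No fold is given against the groups listed at 0, because a 0 may lie below the depth of the library. The plot of effector levels by library shows the 3 genes side by side.

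**Figure D1:**
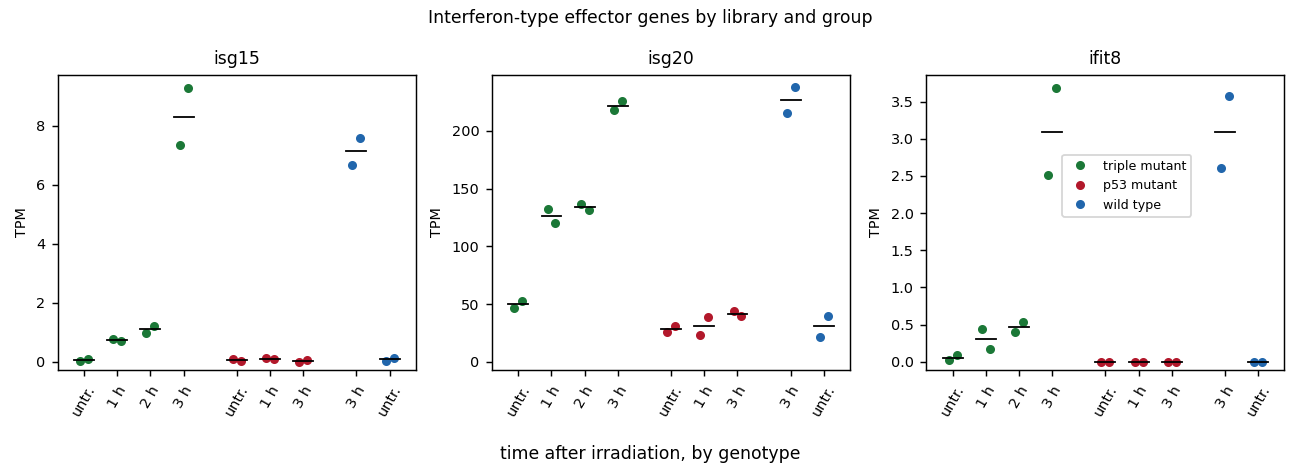
Levels of isg15, isg20 and ifit8 in TPM (linear vertical axes, 1 per gene) in each library, grouped by genotype and time after irradiation (untr., untreated). Points are libraries and bars are means of 2. The 3 h libraries of triple mutants and wild types stand above all others for each gene, and the libraries of p53 mutants stay near the untreated level. The genes were chosen for high levels in irradiated embryos with p53.

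Among the 9 groups, the order of isg15 by mean level was triple mutant at 3 h (8.31 TPM), wild type at 3 h (7.13 TPM), triple mutant at 2 h (1.1 TPM) and triple mutant at 1 h (0.740 TPM). The first pair of these overlapped and the others did not. The remaining 5 groups had means of 0.035 to 0.105 TPM, and each overlapped with its neighbour. For isg20 the order was wild type at 3 h (227 TPM), triple mutant at 3 h (222 TPM), triple mutant at 2 h (134 TPM), triple mutant at 1 h (126 TPM) and untreated triple mutant (49.7 TPM). Its first pair overlapped, as did the triple mutant at 2 h and at 1 h. For ifit8 the triple mutant and the wild type at 3 h had the same mean (3.10 TPM each), followed by the triple mutant at 2 h (0.465 TPM) and at 1 h (0.305 TPM), which overlapped. The order of the top groups was thus shared by the 3 genes except for the neighbours that overlapped.

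In triple mutants the 3 effectors stood above their untreated level at 1 h, as did 20.9% of all genes tested by overlap of libraries. The ratio of means was 10.6 for isg15, 5.55 for ifit8 and 2.54 for isg20. Those of isg15 and ifit8 rest on untreated means of 0.07 and 0.055 TPM, near 0. For ifit8 the lowest 1 h library stood 1.89 times above the highest untreated one, and the log2 difference was 0.30 (SE 0.175). The share of the 3 h difference reached by 1 h, on the linear TPM scale, had another order than the ratios. At 1 h the TPM difference from untreated, as a percentage of the mean difference at 3 h, was 47.9% and 40.9% in the 2 libraries for isg20. It was 8.50% and 7.77% for isg15, and 12.7% and 3.78% for ifit8. The libraries of isg20 thus stood above those of isg15 and ifit8 at this time. At 2 h it was 50.7% and 47.5% for isg20, 11.0% and 14.0% for isg15, and 11.4% and 15.6% for ifit8. The genes isg15 and ifit8 therefore reached most of their level between 2 and 3 h, when isg15 stood 7.56 times and ifit8 6.66 times higher in mean TPM, against 1.65 times for isg20. The percentage at 1 h for 4 genes that p53 is known to induce was 56.4% for cdkn1a (the cell cycle inhibitor p21), 37.1% for bbc3 (the cell death gene puma), 19.8% for mdm2 and 16.0% for phlda3, as means of 2 libraries. These percentages are descriptions and were given no test, and cdkn1a and bbc3 are mutated in these embryos.

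**Figure D2:**
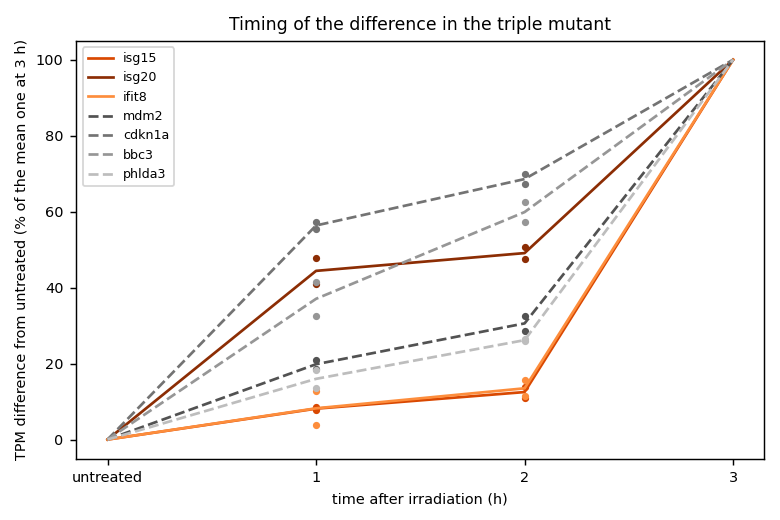
Difference in TPM from the untreated mean in triple mutants, as a percentage of the mean difference at 3 h (vertical axis), against time after irradiation in hours. Lines join means of 2 libraries and points are libraries. Solid lines are isg15, isg20 and ifit8, and dashed lines are 4 p53 target genes. isg20 stood at 44.4% at 1 h, while isg15 and ifit8 stood at 8.13% and 8.22%.

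The step from 1 to 2 h in triple mutants was given a test. Its difference used neither the untreated nor the 3 h libraries from which the effectors were chosen. Its SE and p, however, rest on a spread taken from all 18 libraries, those of the choice included. Both isg15 and ifit8 also entered the fit only through irradiated libraries of embryos with p53. The test was thus not independent of the choice. No member passed the threshold of an adjusted p under 0.05 in limma's moderated test with Benjamini-Hochberg adjustment. Of all 18575 genes 0.0% passed, and 581 had an unadjusted p under 0.05. The log2 difference was 0.27 (SE 0.154, adjusted p = 0.939) for isg15, 0.09 (SE 0.266, adjusted p = 0.952) for isg20 and 0.17 (SE 0.175, adjusted p = 0.939) for ifit8. The 4 regulators tested had differences of -0.18 to 0.27, with adjusted p of 0.939 to 0.945. Of the effectors, only isg15 had both 2 h libraries above both 1 h libraries, as did 47.7% of all genes tested. A miss at this group size does not show that levels were equal.

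The 5 regulators were at or below 12.9 TPM in every library, and none showed the pattern of the effectors across the 9 groups. Among the interferon regulatory factors, irf3 and irf7 act between the sensors and the interferon genes. The level of irf3 (ENSDARG00000076251) was 0.09 to 0.44 TPM in the 8 libraries of triple mutants, 0.00 to 0.59 TPM in the 6 of p53 mutants, and 0.49 and 0.56 TPM at 3 h against 0.23 and 0.18 TPM in untreated wild types. It was below 1 TPM everywhere, and the 3 h libraries of triple mutants (0.21 and 0.25 TPM) lay within the range of their untreated ones (0.39 and 0.23 TPM) or below it.

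The gene irf7 (ENSDARG00000045661) had 0.50 and 0.52 TPM in untreated triple mutants, 0.84 and 0.76 TPM at 1 h, 1.14 and 1.18 TPM at 2 h, and 0.72 and 0.80 TPM at 3 h. In p53 mutants it had 1.23 and 1.11 TPM in untreated embryos, 0.86 and 1.22 TPM at 1 h, and 1.39 and 1.89 TPM at 3 h. Wild types had 1.25 and 0.98 TPM at 3 h, against 0.98 and 1.79 TPM in untreated embryos. In triple mutants irf7 was thus highest at 2 h, when its log2 difference was 0.52 (SE 0.186), and lower again at 3 h with 0.22 (SE 0.186). Of all genes tested, 53.3% had both 2 h libraries above both untreated ones, and 43.5% had both 3 h libraries below both 2 h ones. For irf7 the 3 h difference was -0.16 (SE 0.186) in wild types, with overlapping libraries, and 0.28 (SE 0.186) in p53 mutants. The direction in wild types was not stable, with -0.40 without the libraries of high 5.8S RNA and 0.09 without their partners.

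The gene irf1b (ENSDARG00000043249) is a zebrafish counterpart of IRF1, a transcription factor that interferon gamma induces in mammals. It had 1.14 and 1.05 TPM in untreated triple mutants, 1.02 and 0.80 TPM at 1 h, 0.64 and 1.57 TPM at 2 h, and 0.83 and 0.87 TPM at 3 h. Mutants for p53 had 0.50 and 0.78 TPM in untreated embryos, 0.46 and 1.38 TPM at 1 h, and 3.20 and 2.34 TPM at 3 h. Wild type embryos had 0.82 and 0.93 TPM at 3 h, against 0.59 and 1.05 TPM in untreated embryos. The p53 mutant at 3 h was therefore the group with the highest level, above every library of the other groups. Its log2 difference was 1.2 (SE 0.264) there, against -0.18 (SE 0.264) in triple mutants and 0.05 (SE 0.264) in wild types. Without the 3 libraries of high 5.8S RNA the p53 mutant difference was 1.07, and without their partners 1.32.

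The gene irf9 (ENSDARG00000016457) encodes the DNA-binding partner of STAT2. It had 4.07 and 4.17 TPM in untreated triple mutants, 3.97 and 7.24 TPM at 1 h, 6.78 and 6.63 TPM at 2 h, and 7.26 and 8.66 TPM at 3 h. The p53 mutants had 3.71 and 5.50 TPM in untreated embryos, 2.62 and 7.00 TPM at 1 h, and 12.5 and 12.9 TPM at 3 h. In wild types it had 8.77 and 8.96 TPM at 3 h, against 3.77 and 7.45 TPM in untreated embryos. This was the only regulator with both 3 h libraries above both untreated ones in the 3 genotypes. Of all genes tested, 39.3% met this in triple mutants, 36.4% in p53 mutants and 36.0% in wild types. The share of genes that met it in the 3 genotypes together was not counted. The log2 difference of irf9 was 0.80 (SE 0.370) in triple mutants, 1.31 (SE 0.370) in p53 mutants and 0.64 (SE 0.370) in wild types. The wild type value was 0.22 without the libraries of high 5.8S RNA and 1.05 without their partners, and the p53 mutant value 1.08 and 1.54 under the same omissions.

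The STAT proteins carry the signal from the receptor kinases to the nucleus. The gene stat2 (ENSDARG00000031647) had 0.97 and 1.22 TPM in untreated triple mutants, 0.91 and 1.00 TPM at 1 h, 0.69 and 0.75 TPM at 2 h, and 0.97 and 1.04 TPM at 3 h. Mutants for p53 had 0.60 and 1.31 TPM in untreated embryos, 0.32 and 1.67 TPM at 1 h, and 1.12 and 1.09 TPM at 3 h. Wild type embryos had 2.12 and 2.18 TPM at 3 h, against 0.85 and 1.91 TPM in untreated embryos. In triple mutants stat2 was lowest at 2 h. The 3 h log2 difference was -0.06 (SE 0.303) in triple mutants, 0.13 (SE 0.303) in p53 mutants and 0.44 (SE 0.303) in wild types. The wild type value was 0.11 without the libraries of high 5.8S RNA and 0.77 without their partners, and the p53 mutant value was -0.13 and 0.40.

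**Figure D3:**
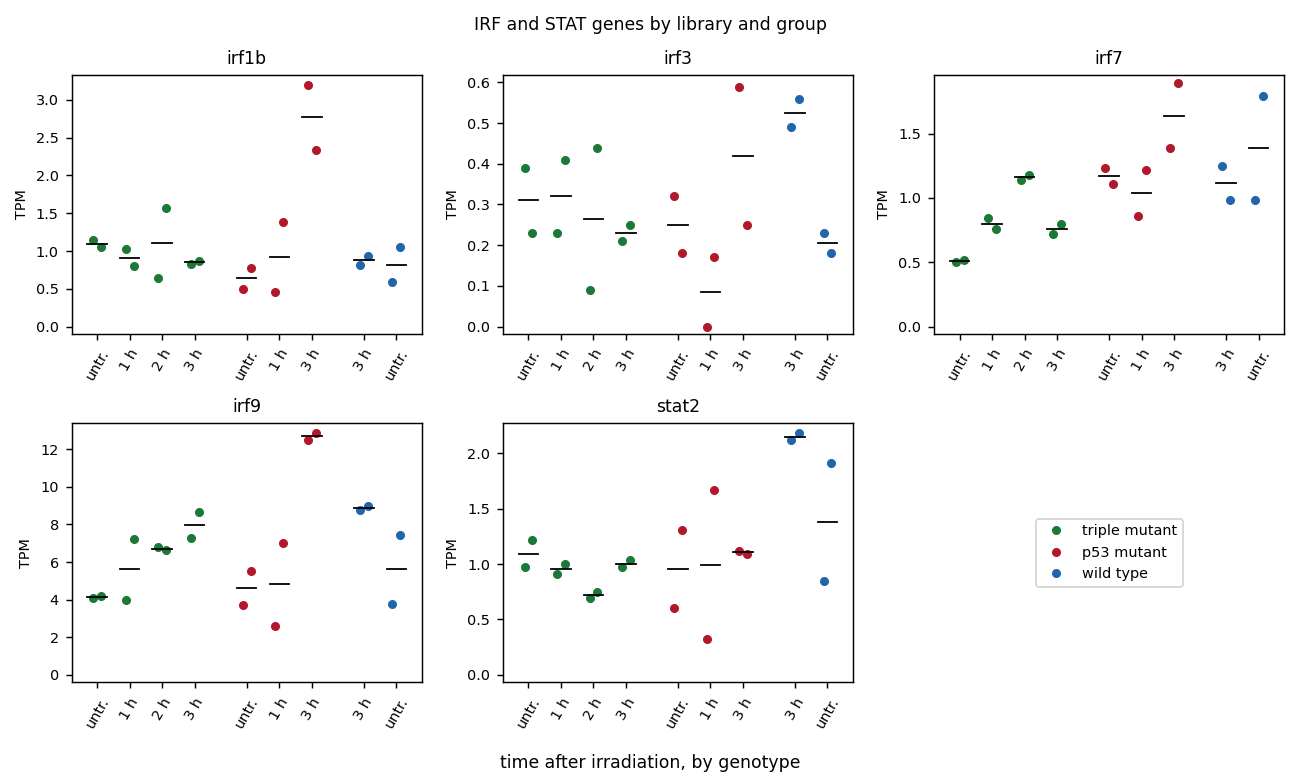
Levels of the 5 regulator genes in TPM (linear vertical axes, 1 per gene) in each library, grouped by genotype and time after irradiation (untr., untreated). Points are libraries and bars are means of 2. irf1b and irf9 are highest in p53 mutants at 3 h, and no panel shows high levels in triple mutants and wild types at 3 h with low levels in p53 mutants.

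Counted by overlap of libraries at 3 h, 2 of 5 regulators (irf7 and irf9) had both triple mutant libraries above both untreated ones and irf1b had both below. In all genes tested 39.3% lay above and 20.9% below. In p53 mutants 3 of 5 lay above (irf1b, irf7 and irf9) and 0 below, against 36.4% above and 9.96% below in all genes. In wild types 3 of 5 lay above (irf3, irf9 and stat2), against 36.0% in all genes. These counts cover 5 genes and were given no test. The effectors lay above in 3 of 3 cases in triple mutants and wild types and in 1 of 3 (isg20) in p53 mutants, a count that follows from how they were chosen.

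**Figure D4:**
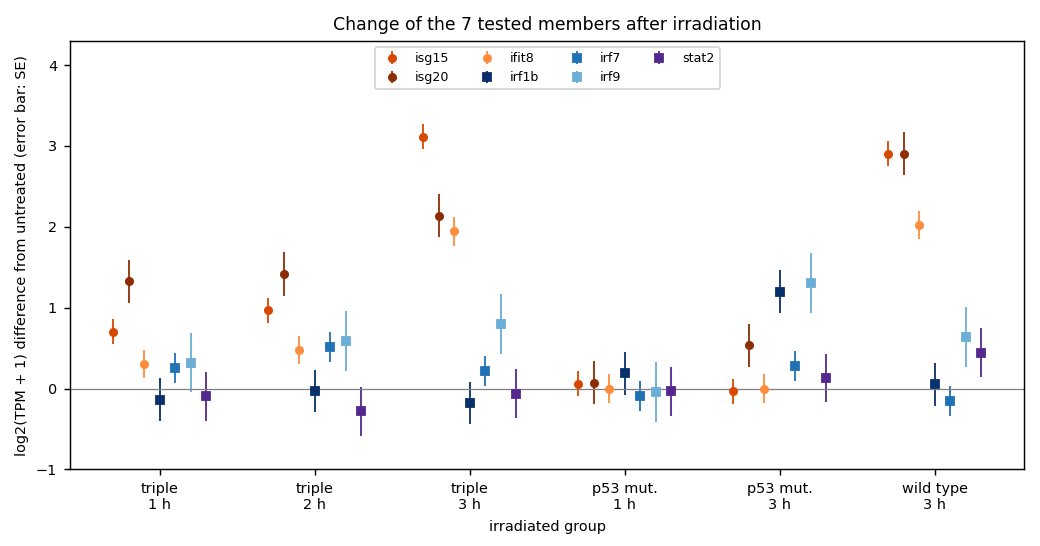
Difference of log2(TPM + 1) from the untreated group of the same genotype (vertical axis) for the 7 members tested, in each irradiated group (horizontal axis). Circles are effectors, squares are regulators and bars are SE from the fit over 18 libraries. At 3 h the effectors, chosen for high levels there, lie at 1.94 to 3.11 in triple mutants and at 2.02 to 2.90 in wild types. The regulators lie below 1 in both. In p53 mutants at 3 h the effectors lie at -0.03 to 0.54 and the regulators at 0.13 to 1.31, with irf1b and irf9 above 1.

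Leukocyte markers moved with some of these values. Among these markers are ENSDARG00000041959 and ENSDARG00000057633, which share the symbol CXCR4 and were matched to 1 name asked for (cxcr4b). Whether the markers are specific to leukocytes in these embryos was not checked. The summed level of 6 leukocyte markers, all of which reached 1 TPM, was 58.0 and 54.1 TPM at 3 h against 38.3 and 46.7 TPM untreated in p53 mutants, and 4 of the 6 had both 3 h libraries above both untreated ones, as did 36.4% of all genes. In triple mutants it was 41.4 and 44.3 TPM at 3 h against 40.2 and 40.9 TPM untreated. There 4 of 6 lay above and 1 below, beside 39.3% and 20.9% of all genes. At 2 h, when irf7 was highest in triple mutants, the sum was 46.2 and 48.6 TPM. Then 5 of 6 lay above and 1 below, beside 53.3% and 17.2%. In wild types the sum was 50.1 and 52.4 TPM at 3 h against 35.8 and 45.7 TPM untreated, with 2 of 6 above beside 36.0%. No leukocyte marker lay below at 3 h in p53 mutants or in wild types. The group with the highest leukocyte sum was thus also the one with the highest irf1b and irf9, and its part in those levels was not tested. The sums of the other immune lists did not set this group apart. In p53 mutants the macrophage sum was 164 and 159 TPM at 3 h against 135 and 196 TPM untreated. The neutrophil sum was 131 and 130 TPM there, against 129 and 142 TPM untreated. By overlap at 3 h, 5 of 14 macrophage markers lay above and 2 below in p53 mutants, beside 36.4% and 9.96% of all genes. In triple mutants 3 lay above and 1 below, and in wild types 2 above and 2 below. Of 3 neutrophil markers 1 lay above and 1 below in p53 mutants. Several macrophage entries share the symbol MFAP4 and were matched to 1 name asked for. The names mpeg1.1, mpx and mmp13a.1 were unmatched. Summed levels over all libraries were 102 to 215 TPM for 14 macrophage markers, of which 9 reached 1 TPM, and 126 to 206 TPM for 3 neutrophil markers, which all did. Markers of other tissues were present in every library and moved with the groups as well. At 3 h in triple mutants, 20.9% of all genes had both libraries below both untreated ones and 39.3% had both above. Below lay 4 of 4 epidermis, 3 of 3 hatching gland and 1 of 5 neural markers. Above lay 4 of 5 neural and 4 of 6 muscle markers. At 3 h in p53 mutants 36.4% of all genes lay above and 9.96% below. Of the markers, 4 of 4 epidermis, 3 of 3 hatching gland, 3 of 5 neural and 1 of 6 muscle lay above. Below lay 4 of 6 muscle markers. In wild types at 3 h 36.0% of all genes lay above and 6.78% below. There 2 of 4 epidermis, 0 of 3 hatching gland, 1 of 5 neural and 2 of 6 muscle markers lay above. Below lay 1 of 6 muscle markers. Of 5 erythroid markers, 2 lay above and 1 below in each genotype. The share of TPM from mitochondrial genes was 1.15% to 2.43% in irradiated triple mutants, against 4.00% and 3.57% in untreated ones. In p53 mutants it was 1.67% and 5.21% untreated, 1.54% and 5.78% at 1 h, and 4.50% and 4.75% at 3 h. Wild types had 2.66% and 8.06% untreated, and 3.84% and 2.48% at 3 h. In the 3 groups listed with 5.8S RNA, the library of high 5.8S RNA had the lower share. The part of these shifts in the members' values was not tested.

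Beyond the members, the pathway was read from 6 lists of ligands, receptors and kinases, sensors and adaptors, other IRF and STAT genes, other interferon-stimulated genes and the enzymes that attach ISG15. They held 93 genes in the tables, of which 54 were tested and 39 stayed under 1 TPM in every library. At 3 h 0 of 54 passed the threshold in triple mutants, where 0.748% of all genes did. Likewise 0 of 54 passed in p53 mutants, where 0.458% did, and 0 of 54 in wild types, where 3.78% did, by limma with Benjamini-Hochberg adjustment. At an unadjusted p under 0.05 there were 3, 2 and 6 of 54 pathway genes, of which 2, 1 and 5 were higher in irradiated embryos, beside 4.96%, 10.0% and 17.7% of all genes. At 1 h 0 of 54 passed in triple mutants (0.0808% of all genes) and in p53 mutants (0.00538%). The test of the difference between responses at 3 h also gave 0 of 54, both for triple mutants less p53 mutants (0.28% of all genes) and for wild types less p53 mutants (0.382%). The median log2 difference of the 54 genes at 3 h was 0.05 in triple mutants, 0.25 in p53 mutants and 0.24 in wild types, against 0.07, 0.17 and 0.23 in all genes tested.

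These counts of 0 depend on the processing and on the libraries that stood apart. With all libraries kept, gbp2, crfb1, ifit11 and jak2a passed in wild types at 3 h with median-of-ratios scaling and with quantile normalization. Of all genes 3.18% and 4.41% then passed. In triple mutants at 3 h crfb1 passed with each of these scalings, beside 1.21% of all genes. Counts under the other alternatives are given at the end. Leaving out the 3 libraries of high 5.8S RNA, or their 3 partners, keeps 1 library each of p53 mutants at 1 h, untreated p53 mutants and untreated wild types. Leaving out a single library also keeps 1 in its group. The spread is then taken from the other groups, so the counts below have no replication in those with 1 library. Without the 3 libraries of high 5.8S RNA 3 of 54 passed in triple mutants at 3 h, 1 in p53 mutants and 11 in wild types, where 5.43%, 8.07% and 28.4% of all genes then passed. Without their 3 partners the counts were 3, 30 and 26, against 5.54%, 45.7% and 57.2% of all genes. For wild types, leaving out either p53 mutant library at 1 h, which enters only the shared estimate of spread, gave 5 of 54 beside 10.2% of all genes. The same omissions gave 1 of 54 in triple mutants at 3 h beside 1.06%. For p53 mutants at 1 h, 12 of 54 passed without their replicate 2, beside 26.5% of all genes.

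The interferon ligands were close to 0 throughout. All 6 genes stayed under 1 TPM in the 18 libraries, 3 of them were listed at 0 in every library, and the highest single value was 0.40 TPM. The type I interferon genes ifnphi1 (ENSDARG00000025607) and ifnphi3 (ENSDARG00000070676) reached 0.33 and 0.40 TPM at most, and ifng1 (ENSDARG00000024211), the gene of interferon gamma, 0.14 TPM. A change in so few cells that it stays below this level could not be detected.

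Receptors, kinases and sensors were present at low to moderate levels. The receptor names crfb5 and crfb13 were unmatched, so those genes were not examined. Of 8 receptor and kinase genes found 7 were tested and 0 passed at any time. The 3 with the highest means were the kinase genes jak2a (ENSDARG00000104808, 13.4 TPM), JAK1 (ENSDARG00000020625, 12.4 TPM) and JAK2 (ENSDARG00000018882, 10.3 TPM), with log2 differences at 3 h of 0.09, 0.23 and 0.05 in triple mutants, 0.66, 0.67 and 0.34 in p53 mutants, and 1.22, 0.47 and 0.69 in wild types. The receptor subunit gene crfb1 (ENSDARG00000068681), singled out after its values were seen, had a log2 difference of 1.17 (SE 0.339, adjusted p = 0.364) in triple mutants and 1.21 (SE 0.339, adjusted p = 0.0731) in wild types at 3 h, against 0.64 (SE 0.339, adjusted p = 0.581) in p53 mutants. It passed in triple mutants with median-of-ratios scaling (adjusted p = 0.0255), with quantile normalization (adjusted p = 0.0111) and in a fit within the table (adjusted p = 0.0199). With array weights it passed there too (adjusted p = 7.79e-05), where 17.7% of all genes did. In wild types it passed with the same scalings (adjusted p = 0.0391 and 0.0188), a pseudocount of 5 TPM (adjusted p = 0.0477) and a replicate block (adjusted p = 0.0461). It passed in neither genotype with a pseudocount of 0.1 TPM or without the filter. Its wild type difference was 0.997 without the libraries of high 5.8S RNA and 1.43 without their partners. With median-of-ratios scaling and quantile normalization jak2a passed in wild types too (adjusted p = 0.0271 and 0.0211). The name of the RIG-I gene was unmatched, so that sensor was not examined. Of 15 sensor and adaptor genes found 10 were tested and 0 passed. Those with the highest means were the kinase gene TBK1 (ENSDARG00000103095, 12.5 TPM) and the adaptor genes MYD88 (ENSDARG00000010169, 9.76 TPM) and TRAF6 (ENSDARG00000028058, 7.01 TPM), with log2 differences at 3 h of 0.04 to 0.15 in triple mutants, 0.28 to 0.53 in p53 mutants and 0.03 to 0.49 in wild types.

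Of 14 other IRF and STAT genes 12 were tested and 0 passed. The highest means belonged to irf2a (ENSDARG00000007387, 42.7 TPM), STAT3 (ENSDARG00000022712, 9.38 TPM) and stat6 (ENSDARG00000015902, 7.49 TPM), and their log2 differences at 3 h were -0.31, 0.15 and -0.15 in triple mutants, 0.17, 0.90 and 0.06 in p53 mutants, and 0.15, 0.98 and 0.38 in wild types. Of 43 other interferon-stimulated genes 21 were tested, and 22 stayed under 1 TPM in every library. The highest means in this list were those of ifi30a (ENSDARG00000056378, 68.6 TPM), a lysosomal reductase gene, dtx3la (ENSDARG00000089511, 21.8 TPM), a ubiquitin ligase gene, and MOV10 (ENSDARG00000015829, 12.8 TPM), an RNA helicase gene. Their log2 differences at 3 h were -0.33, -0.62 and 0.11 in triple mutants, 0.11, -0.08 and 0.36 in p53 mutants, and 0.33, 0.00 and 0.64 in wild types. The gene gbp2 (ENSDARG00000038669), of a family of GTPases that interferon induces in mammals, was singled out after its values were seen because it had the largest wild type difference of the list. Its log2 difference at 3 h was 0.12 (SE 0.315, adjusted p = 1) in triple mutants, 0.53 (SE 0.315, adjusted p = 0.642) in p53 mutants and 1.11 (SE 0.315, adjusted p = 0.0767) in wild types. In wild types it passed with median-of-ratios scaling (adjusted p = 0.0098) and with quantile normalization (adjusted p = 0.00631). Among the 22 genes under 1 TPM were mxa (ENSDARG00000021688), at 0.10 to 0.50 TPM over the 18 libraries, and RSAD2 (ENSDARG00000004952), the gene of viperin. In triple mutants RSAD2 had 0.40 and 0.43 TPM at 3 h, against 0.06 and 0.06 TPM in untreated embryos. It had 0.06 and 0.02 TPM at 3 h against 0.06 and 0.07 TPM untreated in p53 mutants, and 0.09 and 0.34 TPM at 3 h against 0.13 and 0.08 TPM untreated in wild types.

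The only pathway gene that passed in any comparison was parp9 (ENSDARG00000006848), whose mammalian product acts on DNA damage and in interferon signalling, in triple mutants at 2 h. It had 1.93 and 1.68 TPM in untreated triple mutants, 2.20 and 2.02 TPM at 1 h, 3.82 and 3.88 TPM at 2 h, and 2.19 and 2.07 TPM at 3 h. It rose by 0.79 on the log2 scale at 2 h (SE 0.127, adjusted p = 0.0269, limma with Benjamini-Hochberg adjustment), as 1 of 54 pathway genes beside 0.221% of all genes. Leaving out any 1 of 12 libraries, among them all 8 of triple mutants, ended this call, as did a pseudocount of 0.1 TPM. At 2 h 8 of 54 passed in a fit within the table, beside 17.0% of all genes, and 25 of 54 with array weights, beside 38.4%. The highest level of parp9 in triple mutants came at 2 h, as that of irf7 did, and not at 3 h as for the effectors. This direction was common. Of all genes tested, 53.3% had both 2 h libraries above both untreated ones, and 43.5% had both 3 h libraries below both 2 h ones.

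ISG15 acts by being attached to other proteins, and only part of the list of enzymes for that reaction could be tested. Of 13 names asked for 5 were unmatched, among them ube2l6 and herc6. Of 9 genes found 5 were tested and 0 passed at any time. The other 4 (uba7, herc56.2, herc56.4 and usp18) stayed under 1 TPM in every library, so no result is given for them. The highest means were those of the conjugating enzyme genes ube2l3b (ENSDARG00000027141, 155 TPM) and ube2l3a (ENSDARG00000112087, 81.1 TPM) and the ligase gene ARIH1 (ENSDARG00000003616, 15.7 TPM), with log2 differences at 3 h of 0.14, 0.12 and 0.28 in triple mutants, 0.20, 0.31 and 0.37 in p53 mutants, and -0.08, 0.35 and 0.64 in wild types. The gene usp18 (ENSDARG00000088078), whose mammalian product removes ISG15, was at 0.26 TPM or less in every library. In a list of nucleases related to isg20 the name aen was unmatched, so no separate AEN gene was examined. All 4 genes found for this list were tested and 0 passed. Their log2 differences at 3 h were 0.05 to 0.34 in triple mutants, 0.34 to 0.69 in p53 mutants and 0.17 to 0.55 in wild types, with rexo4 (ENSDARG00000088619, 15.4 TPM), REXO2 (ENSDARG00000009806, 15.1 TPM) and rexo1 (ENSDARG00000026986, 7.05 TPM) at the highest means.

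**Figure D5:**
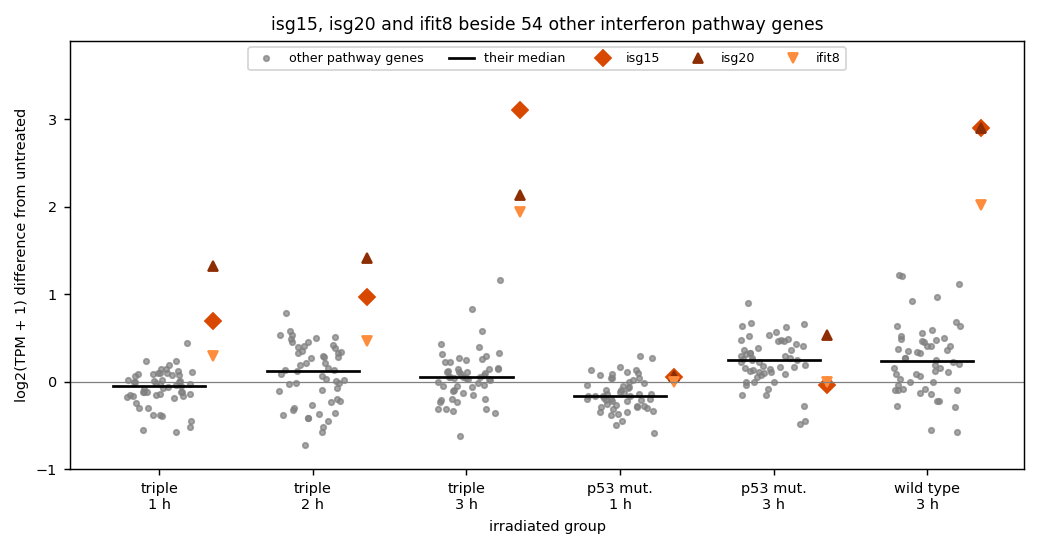
Difference of log2(TPM + 1) from the untreated group of the same genotype (vertical axis) for 54 other interferon pathway genes (grey points, spread sideways for legibility; black line, their median) and for isg15, isg20 and ifit8 (coloured symbols), in each irradiated group. At 3 h the 3 effectors stand above the highest grey point in triple mutants (1.17) and in wild types (1.22), and not in p53 mutants. The effectors were chosen for high levels in irradiated embryos with p53 and the grey genes were not, so their place follows from that choice.

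The genes whose pattern was most like that of each effector were sought by the correlation of log2(TPM + 1), less the untreated mean of the same genotype, over the 18 libraries. The candidates were 1095 genes with a change of at least 1 in some irradiated group. The libraries share their untreated means and their timing, so the correlations are descriptions with no test. For isg20 they were mdm2, the inhibitor of p53 (r = 0.988), si:ch1073-170h8.3 (r = 0.987), the sestrin gene sesn3 (r = 0.972), rnf169, a ubiquitin ligase gene (r = 0.972), and the sestrin gene sesn4 (r = 0.969). For isg15 they were the protease gene prss56 (r = 0.987), si:ch73-56d11.5 (r = 0.986), ENSDARG00000102572 (r = 0.984), si:ch211-40k21.9 (r = 0.984) and EXO5, an exonuclease gene (r = 0.983). For ifit8 they were si:dkey-188g12.2 (r = 0.990), RSPO1, the gene of a secreted Wnt enhancer (r = 0.989), si:dkey-29n3.2 (r = 0.988), the caspase gene casp8 (r = 0.987) and si:ch73-56d11.5 (r = 0.981). Between members the correlation was 0.990 for isg15 and ifit8, 0.913 for isg15 and isg20, and 0.900 for isg20 and ifit8. With Euclidean distance as the measure, 2 of the 5 genes named for isg20 (rnf169 and sesn4) and 0 of the 5 for isg15 and for ifit8 were named again.

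The gene mdm2, the one most like isg20 by this measure, averaged 764 TPM at 3 h against 54.0 TPM untreated in triple mutants, 53.2 TPM against 39.0 TPM in p53 mutants, and 1015 TPM against 43.7 TPM in wild types. For isg20 the mean at 3 h stood 4.46, 1.46 and 7.39 times above the untreated mean in the same genotypes. Both genes thus had transcripts in untreated embryos of every genotype, while isg15 and ifit8 were near or at 0 in them.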

How the data were processed

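The authors deposited TPM values for 32057 genes in 3 tables, 1 per genotype, and the sum of every column lay within 1 of 1000000. Per the submitters' processing notes the build was GRCz11 and the tools were RSEM 1.3.3, STAR 2.7.3a, R 4.3.3, DESeq2 1.42.1 and HTSeq 0.12.3, with no roles given, and the annotation release is not given in the sources used here. TPM values hold no read counts, so depth is unknown and no counting interval or floor was computed. Per the labels, read length depended on the sequencing centre, which is not named for single libraries.

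Symbols came from a gene name table (28988 genes matched), ignoring case. Of 105 names asked for in the pathway lists 14 were unmatched. The 18575 genes that reached 1 TPM in 2 or more libraries were fitted as log2(TPM + 1) with limma 3.58.1 in R 4.3.3, with a trended spread, over the 9 groups without a replicate block (9 residual and 2.87 prior degrees of freedom). The fit gave 12 comparisons, two-sided, adjusted by Benjamini-Hochberg over all genes and called at an adjusted p under 0.05. Those of 1 genotype share its untreated libraries. Data of the same size were simulated for the triple mutant at 3 h over 18575 genes. There 72% of genes shifted by 2 and 27% of those shifted by 1 on the log2 scale were called. The simulated errors were independent, of equal spread in the 9 groups, with no shift shared by the genes of a library. These percentages may therefore not hold for the real libraries. Alternatives were other pseudocounts, no filter, median-of-ratios and quantile scaling, a fit within the table, array weights, a replicate block, and omitted libraries.

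Of the set, 2 regulator genes are not reported here. The members and lists were chosen with earlier results of these data known. Named from each list were the genes called and the 3 with the highest mean, and any other is said to be chosen later. The genes mxa, RSAD2, usp18 and gbp2 were also chosen after their values were seen.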

Additional observations from a re-analysis of the deposited data

Results flagged for a closer look

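For irf1b the 3 h libraries lay on opposite sides of the untreated ones in the mutants. Both p53 mutant libraries stood above both untreated ones, as for 36.4% of all genes, and both triple mutant libraries stood below theirs, as for 20.9%. The log2 difference was 1.2 (SE 0.264) in p53 mutants and -0.18 (SE 0.264) in triple mutants, which is smaller than its SE, and the p53 mutant difference exceeded the triple mutant one by 1.38 on the log2(TPM + 1) scale. This difference was not tested.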

How the results depend on the processing

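Of the members' differences under the alternatives, 2181 moved by less than 1 SD between replicates and 143 by more, and 61 of these 2324 had the other sign, where the reported difference was at most 0.36. None of those with the other sign was a 3 h difference of an effector in triple mutants or wild types. Many of the 2181 could not move, so their number is no measure of stability. Some alternatives change only the estimate of spread, and an omitted library changes only the differences that use its group. At a pseudocount of 1 TPM the 3 h difference was 2.97 to 3.26 for isg15, 1.99 to 2.22 for isg20 and 1.74 to 2.15 for ifit8 in triple mutants, and 2.57 to 2.99, 2.48 to 3.32 and 1.69 to 2.20 in wild types. With pseudocounts of 0.1 and 5 TPM included, isg15 ranged over 1.39 to 5.64 in triple mutants, since low levels depend on the pseudocount. For the step from 1 to 2 h, 0 of 7 members passed in every alternative. Counts of pathway genes passing, of 54, moved as follows, with the share of all genes passing in parentheses, and the cause was not tested. Where libraries were left out, the groups they came from kept 1 library, and their spread was taken from the other groups. Without either 5.8S set the p53 mutants at 1 h were compared as 1 library against 1, so those counts have no replication. In triple mutants at 1 h 1 passed with array weights (1.28%) and 1 without either set of 3 libraries that differ in 5.8S RNA (2.21%). From 1 to 2 h 2 passed with array weights (1.17%) and 3 without the high or the low set (2.68% and 2.71%). At 2 h 25 passed with array weights (38.4%), 8 in the fit within the table (17.0%), 0 with a pseudocount of 0.1 TPM (0.221%), and 13 and 14 without the high and the low 5.8S libraries (20.9% and 21.0%), and leaving out 1 library gave 0 to 1. At 3 h 9 passed with array weights (17.7%), 2 in the fit within the table (4.66%), 1 each with median-of-ratios and quantile scaling (1.21% each), and 3 without the high or the low set (5.43% and 5.54%), and leaving out 1 library gave 0 to 1. In wild types at 3 h 4 passed with median-of-ratios (3.18%) and 4 with quantile scaling (4.41%), 1 of 89 without the filter (2.94%), 2 with a pseudocount of 5 TPM (4.43%), and 11 and 26 without the high and the low 5.8S libraries (28.4% and 57.2%), and leaving out 1 library gave 0 to 5. In p53 mutants 17 passed at 1 h (33.1%) and 30 at 3 h (45.7%) without the low 5.8S libraries, 1 at 3 h without the high ones (8.07%), and leaving out 1 library gave 0 to 12 at 1 h, where 12 passed without replicate 2 of that group (26.5%). For differences between responses at 3 h, 16 passed, all lower, for the triple mutant less the p53 mutant without the low 5.8S libraries (23.4%), and 1 for the wild type less the p53 mutant without the high ones (7.67%). With the replicate block 2 passed in wild types (4.88%) and no other count changed. Same-numbered libraries correlated at -0.34 to 0.79 in their deviations, so the numbers were not taken as pairs. With the wild type 3 h numbers crossed, an alternative chosen after seeing the data, 0 passed.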

Other observations

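The gene parp9 was present in the table of triple mutants and close to 0 in the others. It had 1.68 to 3.88 TPM in the 8 libraries of triple mutants, 0.00 to 0.01 TPM in the 6 of p53 mutants, and 0.17 and 0.17 TPM at 3 h against 0.03 and 0.01 TPM in untreated wild types. Genotype and table cannot be told apart in these levels.

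The gene ifit11 (ENSDARG00000090537), a relative of ifit8 chosen here after its values were seen, had 2.33 and 2.77 TPM at 3 h against 1.66 and 1.71 TPM in untreated triple mutants, and 2.93 and 3.18 TPM at 3 h against 1.04 and 1.24 TPM in untreated wild types. Its log2 difference was 0.40 (SE 0.244, adjusted p = 1) in triple mutants, 0.11 (SE 0.244, adjusted p = 0.935) in p53 mutants and 0.92 (SE 0.244, adjusted p = 0.0606) in wild types, by limma with Benjamini-Hochberg adjustment. With median-of-ratios scaling, quantile normalization, a pseudocount of 5 TPM or a replicate block it passed in wild types. The adjusted p was 0.0399, 0.0211, 0.0319 and 0.0471 in that order. Without the 3 libraries of high 5.8S RNA the wild type difference was 0.86, and without their partners 0.99. The wild type response exceeded the p53 mutant one by 0.87 without the libraries of high 5.8S RNA, which leaves 1 library in each of the 2 untreated groups. With all 18 libraries and the settings of the main fit, 0 of 54 pathway genes passed for this difference.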
